A study of Mus musculus with 10 samples.

Results

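The genes described here are 10 genes of the smooth muscle and myofibroblast contractile apparatus, namely Acta2, Actg2, Tagln, Cnn1, Myl9, Tpm1, Tpm2, Myh11, Lmod1 and Des. They were taken by gene symbol out of the 18384 genes listed in an mRNA-seq experiment on mouse adipocyte precursors (APs), and all 10 passed the filter on low counts that left 14009 genes for testing. Each of the 10 was lower in APs incubated with IL-4 than in control APs, by 1.60-fold for Myh11 to 3.94-fold for Cnn1. Their summed share of all counts ranged from 0.393 to 0.425% among controls and from 0.136 to 0.162% with IL-4.

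Contractile cells generate force when bipolar filaments of myosin pull on actin filaments, and phosphorylation of the regulatory light chain of myosin switches this on. Smooth muscle cells and myofibroblasts build these filaments from their own actin, tropomyosin, calponin and transgelin paralogs in addition to the non-muscle forms that nearly all cells express. Many of these genes are controlled by serum response factor (SRF), which binds a short DNA element called the CArG box together with cofactors of the myocardin family. Fibroblast-like precursors from fat that are grown on plastic with serum commonly express several of them.

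APs were isolated from the subcutaneous white adipose tissue of C57BL/6J mice by depleting cells that carried CD45 or CD31 and then selecting cells that carried SCA-1. They were grown in medium with fetal bovine serum. The control group (replicates 1 to 3) is labelled as control, with no further detail. The IL-4 group (replicates 4 to 6) received IL-4 from the day after seeding, and its cells were collected for RNA-seq after 4 days with IL-4. Every library thus comes from primary cells in culture. The age and sex of the mice, and whether cells of several mice were pooled, are not given in the sources used here. The series calls the 3 libraries of a group biological replicates and does not say what separated them, so p-values judge the group difference against the spread between these libraries. The libraries held 28526782 to 29057787 counts each.

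Among the 14009 genes tested, 18.4% were lower with IL-4 at an adjusted p under 0.05 and 19% were higher. All 10 contractile genes were among the lower ones (quasi-likelihood test of edgeR, p adjusted by Benjamini-Hochberg). A fall of more than 2-fold was found for 9 of the 10, against 5.26% of all genes tested (5.77% rose by as much), with Myh11 the exception. In each of the 10 genes the highest IL-4 library lay under the lowest control library, a separation in that direction that 25.3% of all genes tested showed. The median log2 fold change of the 10 genes was -1.24, and that of all genes tested was 0.0026. The 10 genes were chosen with earlier results of these data known. Their counts beside those of all genes are thus descriptive and no test of the 10 as a set. These are bulk samples, in which fewer cells of a type and less RNA per cell cannot be told apart.

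**Figure D1:**
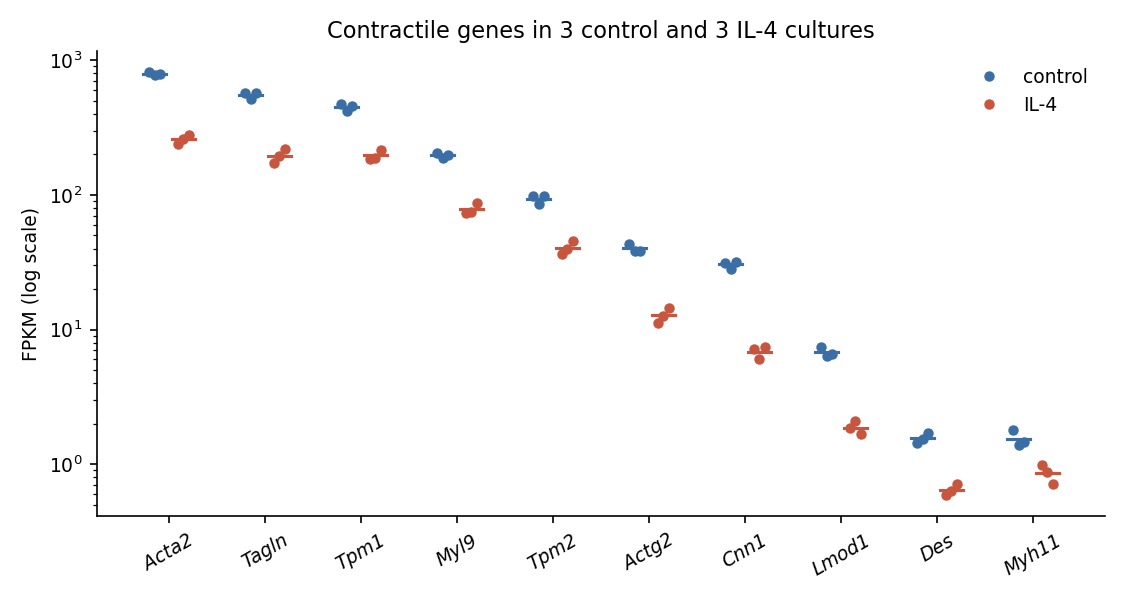
FPKM (fragments scaled by transcript length and library size, log scale) of the 10 contractile genes in the 3 control libraries (blue) and the 3 IL-4 libraries (red), with short lines at the group means. For every gene the IL-4 points lie under the control points, from Acta2, with means of 796 and 259.6, down to Des and Myh11, which lie under 2 FPKM in all 6 libraries.

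Acta2 encodes smooth muscle alpha-actin, the standard marker of myofibroblasts (chr19:34240336-34255585, GRCm38). Its normalized counts, which are expected counts scaled for library size and composition, were 55746, 53451 and 53318 in control replicates 1 to 3. They were 18609, 20093 and 21039 in IL-4 replicates 4 to 6. The groups were far apart relative to their spread, and the fall was 2.72-fold (95% interval 2.44 to 3.04; log2 fold change -1.44 ± 0.068 SE, adjusted p = 2.10e-06). Actg2, the smooth muscle gamma-actin that is most abundant in enteric muscle (chr6:83512909-83536251), had 1504, 1342 and 1311 normalized counts in the controls against 443, 499 and 552 with IL-4. It fell 2.78-fold (95% interval 2.38 to 3.25; adjusted p = 1.30e-05). The log2 ratio of Actg2 to Acta2 was -5.29 in the controls and -5.33 with IL-4, with overlapping groups, so the ratio of the actins changed by -0.03 on the log2 scale (exact permutation test, two-sided, p = 0.6).

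Promoter letters were searched for the DNA elements tied to these genes, in the RefSeq promoters of GRCm38.p6 that run from 250 bases before to 50 bases after a transcription start. Of the 10 genes, 7 had an entry, and Actg2, Tagln and Myh11 had none. A CArG box with only A or T in its middle was found, on either strand, in 1.63% of the 32851 promoters and in that of Myl9. With at most 1 G or C allowed in the middle it was found in 9.98% of promoters and in those of Acta2 and Myl9. The MCAT element CATTCC, bound by TEA-domain factors, was found in 14.7% of promoters and in those of Acta2, Lmod1 and Tpm1. The palindrome of TTC and GAA spaced by NNNN, the form preferred by STAT6, which acts downstream of the IL-4 receptor, was found in 7.0% of promoters and in that of Lmod1, where it overlaps the MCAT letters. The matches below are shown because Acta2 and Myl9 are the genes with CArG letters and Lmod1 and Tpm1 those with MCAT letters, and capitals mark the match. Each is printed 5′ to 3′ on the strand of the gene.
Acta2, CArG, chr19:34255438-34255467, minus strand: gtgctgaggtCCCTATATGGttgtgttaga
Acta2, CArG, chr19:34255388-34255417, minus strand: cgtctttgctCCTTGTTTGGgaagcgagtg
Acta2, MCAT (reverse complement), chr19:34255502-34255531, minus strand: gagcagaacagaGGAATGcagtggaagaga
Myl9, CArG, chr2:156775293-156775322, plus strand: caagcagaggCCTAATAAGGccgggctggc
Myl9, CArG, chr2:156775355-156775384, plus strand: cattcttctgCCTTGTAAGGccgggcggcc
Lmod1, MCAT (reverse complement), chr1:135324671-135324700, plus strand: ccaagattccctGGAATGtcctcaagtttc
Tpm1, MCAT (reverse complement), chr9:67049252-67049281, minus strand: tggctgtcctaaGGAATGcggtcgcccccc

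In Acta2 the CArG matches begin 84 and 34 bases before the start that the promoter table uses, and the MCAT match begins 146 bases before it. The Myl9 matches begin 161 and 99 bases before the start, that of Lmod1 130 and that of Tpm1 56. The windows of Myl9 and Lmod1 lie upstream of all annotated transcripts of these genes. Those of Acta2 are exonic in 1 of its 2 RefSeq transcripts, a predicted one that begins further upstream, and that of Tpm1 is exonic in 19 of its 38 transcripts. These matches are descriptions of the letters, and no binding was measured.

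Tropomyosins lie along actin filaments and govern which proteins reach them. Tpm1 (chr9:67022590-67049672) had 20850, 18618 and 20070 normalized counts in the controls against 9171, 9462 and 10581 with IL-4. Tpm2 (chr4:43513726-43523583) had 5658, 4970 and 5530 in the controls against 2368, 2558 and 2859 with IL-4. Both fell by close to the 2-fold threshold, Tpm1 by 2.04-fold (95% interval 1.80 to 2.31; adjusted p = 2.58e-05) and Tpm2 by 2.08-fold (95% interval 1.81 to 2.38; adjusted p = 4.17e-05). Tpm1 and Tpm2 each make muscle and non-muscle forms by splicing, which gene totals do not separate. Their average transcript lengths, which RSEM weights by isoform, stayed within 1686.5 to 1692.2 bases for Tpm1 and 2159 to 2187 bases for Tpm2 over the 6 libraries. A steady average length does not show that the mix of isoforms stayed the same, and isoform levels were not examined.

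Tagln, Cnn1 and Lmod1 encode proteins that bind and shape actin filaments of contractile cells. Tagln (transgelin or SM22; chr9:45929628-45936058) had 23383, 21557 and 23211 normalized counts in the controls against 8121, 9093 and 10033 with IL-4, a 2.50-fold fall (95% interval 2.18 to 2.87; adjusted p = 1.26e-05). Cnn1 (calponin, which restrains the myosin motor; chr9:22099221-22109221) had 1642, 1491 and 1633 in the controls against 423, 359.8 and 426 with IL-4. This was the largest fall of the 10 genes, 3.94-fold (95% interval 3.43 to 4.53; log2 fold change -1.98 ± 0.087 SE, adjusted p = 1.42e-06). Lmod1 (leiomodin, which nucleates actin filaments in smooth muscle; chr1:135324813-135368065) had 789.9, 679 and 688 in the controls against 221, 251 and 194 with IL-4. It fell 3.24-fold (95% interval 2.70 to 3.88; adjusted p = 1.35e-05), and its interval overlaps that of Cnn1.

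Myl9 and Myh11 belong to the myosin motor. Myl9, a regulatory light chain whose phosphorylation starts contraction (chr2:156775408-156781657), had 5641, 5229.9 and 5429 normalized counts in the controls against 2315, 2363 and 2672 with IL-4. It fell 2.22-fold (95% interval 1.98 to 2.49; adjusted p = 9.89e-06). Myh11, the smooth muscle myosin heavy chain and the strictest marker of differentiated smooth muscle (chr16:14194527-14292188), had only 319, 247 and 257 in the controls against 199, 175 and 141 with IL-4. Its fall of 1.60-fold was the smallest of the 10 genes and the least precise (95% interval 1.25 to 2.04; log2 fold change -0.68 ± 0.154 SE, adjusted p = 0.00973).

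Des encodes desmin, the intermediate filament protein of muscle (chr1:75360292-75368579). It had 118, 128 and 137 normalized counts in the controls against 54.6, 58.7 and 64.0 with IL-4, the lowest of the 10 genes. The groups did not overlap, and the fall was 2.15-fold (95% interval 1.75 to 2.65; adjusted p = 0.000316).

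**Figure D2:**
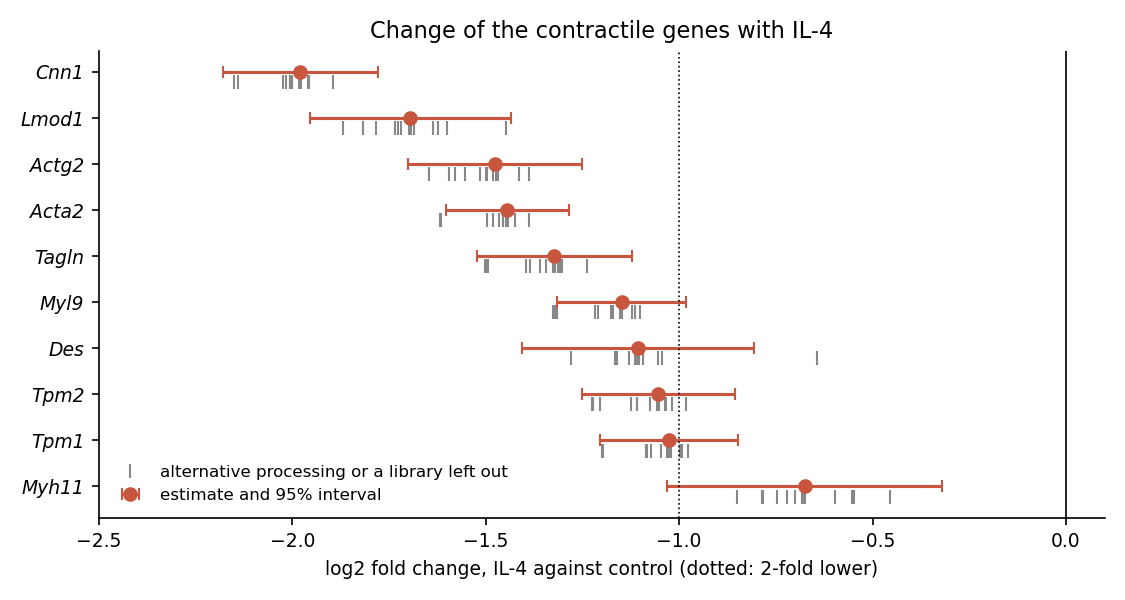
Log2 fold change of each contractile gene, IL-4 against control, with its 95% interval (red) and the values under alternative processing or without single libraries (grey ticks). All values lie under 0, from Cnn1 at -1.98 to Myh11 at -0.68, and the dotted line marks a 2-fold fall.

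The size of the fall differed among the genes. Relative to Acta2 in the same library, Cnn1 fell further by 0.54 and Lmod1 by 0.25 on the log2 scale. Against the same measure, Tagln kept 0.12 more, Myl9 0.29, Des 0.34, Tpm2 0.39, Tpm1 0.42 and Myh11 0.77. In these 8 genes the log2 ratios of the groups did not overlap, and the exact permutation test gave p = 0.1 each, the smallest that 3 against 3 libraries allow, so this test cannot reach 0.05. How many of all genes tested separate in their ratio to Acta2 was not computed. The count of 8 therefore has no background and is not read as particular to these genes.

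Levels are comparable between genes only per length, as FPKM. In the control libraries the order was Acta2 (796 ± 20.5, SD, n = 3), Tagln (551 ± 28.5), Tpm1 (450.3 ± 27.9), Myl9 (197 ± 8.52), Tpm2 (94.0 ± 6.73), Actg2 (40.1 ± 2.97), Cnn1 (30.5 ± 1.84) and Lmod1 (6.83 ± 0.582). Des (1.57 ± 0.126) and Myh11 (1.55 ± 0.223) came last and did not differ beyond their spread. Acta2 and Tagln RNA were thus abundant in the control cells, whereas Myh11 and Des RNA were scarce. With IL-4 the order was Acta2 (259.6 ± 19.6), Tpm1 (196 ± 18.1) and Tagln (195 ± 23.4), of which the last pair overlapped. Myl9 (78.9 ± 7.52), Tpm2 (40.3 ± 4.54), Actg2 (12.8 ± 1.59), Cnn1 (6.86 ± 0.703), Lmod1 (1.87 ± 0.211), Myh11 (0.857 ± 0.131) and Des (0.643 ± 0.061) followed, each without overlap with its neighbour. Myh11 and Des nearly met, with a lowest Myh11 value of 0.72 and a highest Des value of 0.71, so their order is not secure.

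The non-muscle and other paralogs of these proteins are built into similar filaments in most cells. Of 17 listed, 15 were tested, 10 were lower and 2 were higher, with a median log2 fold change of -0.30. The cytoskeletal actins Actb (log2 fold change -0.50, adjusted p = 0.000629) and Actg1 (-0.22, adjusted p = 0.0205) fell, as did the skeletal actin Acta1 from a low level (-2.16, adjusted p = 8.17e-05). Tpm3 (-0.30) and Tpm4 (-0.24) fell with adjusted p = 0.00476 and 0.0111, Cnn2 (-1.02) and Cnn3 (-0.32) with 3.39e-06 and 0.00207, and the non-muscle myosins Myh9 (-0.88) and Myh10 (-0.53) with 0.00209 and 0.0261. Myl12a fell (-0.45, adjusted p = 0.00552), and Myl12b, a non-muscle light chain, rose (0.44, adjusted p = 0.0221). Vim, the intermediate filament gene of mesenchymal cells, also rose (0.32, adjusted p = 0.00627). Both rises were lost when libraries were scaled by their totals alone, to 0.27 (adjusted p = 0.127) for Myl12b and 0.14 (adjusted p = 0.142) for Vim. The changes of Actg1 and Tpm4 were near the threshold, and leaving out single libraries gave adjusted p up to 0.10 for Actg1 and up to 0.0577 for Tpm4. Without control replicate 1 or control replicate 2, the adjusted p was 0.0952 or 0.0885 for Myh10 and 0.0905 or 0.0855 for Myl12b. The transgelin paralog Tagln2 (-0.16, adjusted p = 0.188), the light chain Myl6 (0.03, adjusted p = 0.826) and the heavy chain Myh14 (-0.29, adjusted p = 0.524) did not pass. Tagln2 passed as lower with library totals (-0.33, adjusted p = 0.0225), with limma on log2(FPKM + 1) and log2(FPKM + 0.1) (0.0288 and 0.0284), without IL-4 replicate 6 (0.0113) and without both this library and control replicate 3 (0.00126). Actc1 and Tagln3 were too low to test.

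Within its family, Tagln made up 66.5 ± 1.11% of transgelin FPKM in the controls and 47.0 ± 0.703% with IL-4. Acta2 made up 18.9 ± 0.658% of actin FPKM in the controls and 10.1 ± 0.161% with IL-4, while Actg1 went from 33.4 ± 0.117% to 41.6 ± 0.531%. The make-up of both families thus differed between the groups with no overlap. Myl9 went from 33.8 ± 1.59% to 20.2 ± 0.818% of the regulatory light chains, and Cnn1 from 5.97 ± 0.324% to 2.46 ± 0.215% of the calponins. Tpm1 went from 37.1 ± 0.966% to 26.8 ± 0.851% of the tropomyosins, and Tpm2 from 7.74 ± 0.274% to 5.50 ± 0.283%. Of the 10 genes, 9 had a lower share of their family in every IL-4 library than in any control library (exact permutation test, p = 0.1 each, the smallest possible). Shares were taken only within these families, so the count has no counterpart over all genes tested. Lmod1 is 1 of these 9, at 99.8 ± 0.208% and 96.0 ± 2.77% of a family whose other genes were at or near 0. Myh11 was the exception, with 0.525 ± 0.077% of heavy chain FPKM in the controls and 0.586 ± 0.031% with IL-4 (exact permutation test, p = 0.3), in a family where Myh9 made up 89.8 ± 0.112% and 87.4 ± 0.198%. Lower shares without overlap were not limited to the contractile genes. Acta1, Myh9, Myl12a and Cnn2 also had them, with Cnn2 at 49.8 ± 0.428% of the calponins in the controls and 39.9 ± 0.306% with IL-4. Actb, Actg1, Tpm3, Tpm4, Myh10, Myl12b, Cnn3, Tagln2, Lmod3 and Vim had higher shares without overlap.

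**Figure D3:**
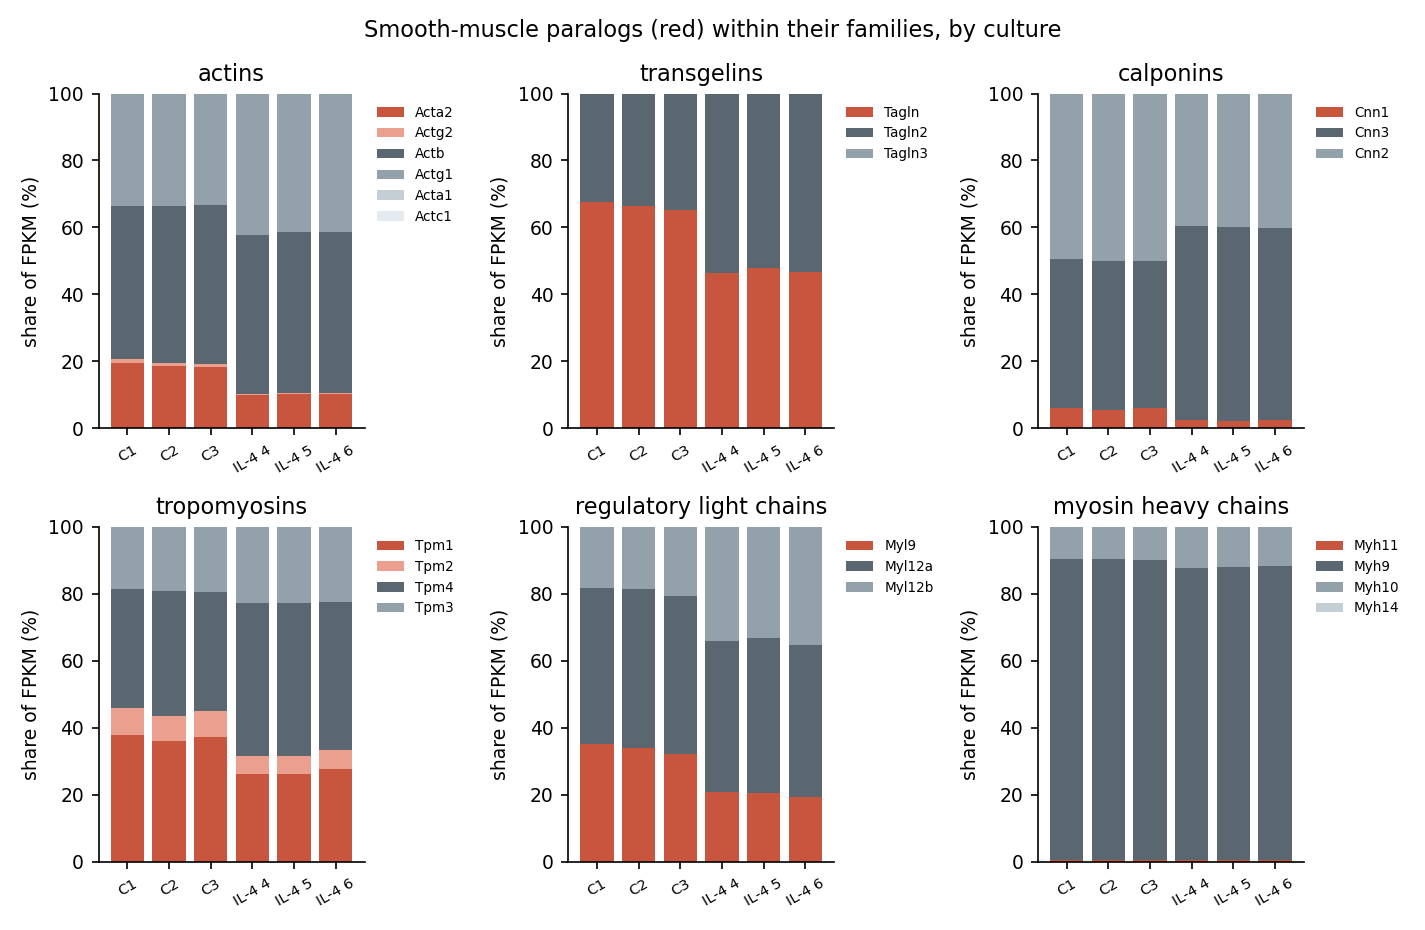
Share of each gene in the summed FPKM of its protein family (percent, bars to 100) in control libraries C1 to C3 and IL-4 libraries 4 to 6, with the contractile genes in red at the bottom of each bar. The red part is smaller in the IL-4 bars in all panels but the myosin heavy chains, where Myh11 stays under 1% throughout.

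Regulators of these genes went in both directions. Of 12 genes listed as SRF and myocardin-family regulators, 2 rose (16.7%) and 4 fell (33.3%), with a median log2 fold change of -0.16. Over all genes tested 19% rose and 18.4% fell, and the counts of every other list are to be set against these shares. Srf itself had 1586, 1568 and 1449 normalized counts in the controls against 1254, 1336 and 1280.3 with IL-4 (log2 fold change -0.25, adjusted p = 0.0154), and the adjusted p rose to 0.0724 without control replicate 1, 0.0676 without control replicate 2 and 0.0636 without IL-4 replicate 4. Myocd, the cofactor that gives the myocardin family its name, had 11.4, 10.6 and 8.44 in the controls against 84.5, 77.9 and 38.2 with IL-4. It rose by 2.71 on the log2 scale (adjusted p = 0.000708) from a level near the filter, opposite in direction to the contractile genes.

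The related cofactors Mkl1 and Mkl2, which carry actin-monomer signals to SRF, did not pass, at -0.18 (adjusted p = 0.0937) and 0.32 (adjusted p = 0.154). Mkl1 passed as lower under other scalings, at -0.35 with library totals (adjusted p = 0.00334), and Mkl2 passed as higher without IL-4 replicate 6, at 0.50 (adjusted p = 0.000240). Among the LIM-domain partners, Fhl2 fell (-1.38, adjusted p = 2.46e-06) and so did Csrp1 (-0.86, adjusted p = 1.66e-05), while Fhl1 rose (1.82, adjusted p = 5.96e-07). The transcription factor Foxp1 also fell (-0.27, adjusted p = 0.00909).

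Of 17 genes of the contraction machinery and its regulators, 14 were tested, 1 rose (7.14%) and 3 fell (21.4%), with a median of 0.00057. The share that fell was near the 18.4% of all genes tested. The gene that rose was Mylk, whose kinase phosphorylates Myl9, with 1986, 1995 and 1931 normalized counts in the controls against 7395, 6814 and 5999 with IL-4 (log2 fold change 1.77, adjusted p = 1.93e-06). Its groups lay far apart, with Mylk high where Myl9 was low. Cacna1c, a subunit of the L-type calcium channel, fell (-1.38, adjusted p = 0.000590), as did the actin-binding Cald1 (-0.60, adjusted p = 0.000427). Arhgef1 was at the threshold (-0.17, adjusted p = 0.0485). It did not pass with upper-quartile scaling (0.0556), without a filter (0.0707) or without any single library but IL-4 replicate 6 (up to 0.198). The count of lower genes in this list was 2 without a filter and without any single library but IL-4 replicate 6. It was 7 when libraries were scaled by their totals. The smooth muscle genes Kcnmb1, Pln and Casq2 were too low to test, and Kcnmb1 had at most 3 reads in every library.

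Dense plaques and actin bundles anchor the filaments at the membrane. In their list, 20 of 22 genes were tested, 12 were lower and 2 were higher, with a median log2 fold change of -0.51. Pdlim3, a PDZ and LIM protein of actin bundles, had 175, 214 and 168 normalized counts in the controls against 14.98, 14.95 and 23.7 with IL-4 (log2 fold change -3.36, adjusted p = 8.27e-06). Palld (palladin, which bundles actin; -1.14, adjusted p = 2.76e-05) and Tns1 (tensin, which links actin to integrins; -1.14, adjusted p = 0.000704) followed. The genes that rose were Tmod1, which caps filament ends (1.26, adjusted p = 0.000111), and Svil, which ties actin to the membrane (0.59, adjusted p = 0.00511).

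Genes of myofibroblast activation and matrix moved in both directions. Of 20 genes, all tested, 7 rose and 10 fell, with a median of -0.37, although the summed normalized count of the list was 1.81 times as high with IL-4 because its most abundant genes were among those that rose. Postn (periostin; 1.84, adjusted p = 7.18e-07), Col3a1 (1.37, adjusted p = 3.88e-06) and Lox, which crosslinks collagen (1.30, adjusted p = 4.91e-05), rose. Col8a1 (-2.48, adjusted p = 3.02e-06) and Ltbp2 (-2.04, adjusted p = 7.09e-06) fell. The matrix genes thus included both Postn, with 221709 to 227475 normalized counts in the controls against 773183 to 824053 with IL-4, and genes that fell as far as the contractile ones.

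**Figure D4:**
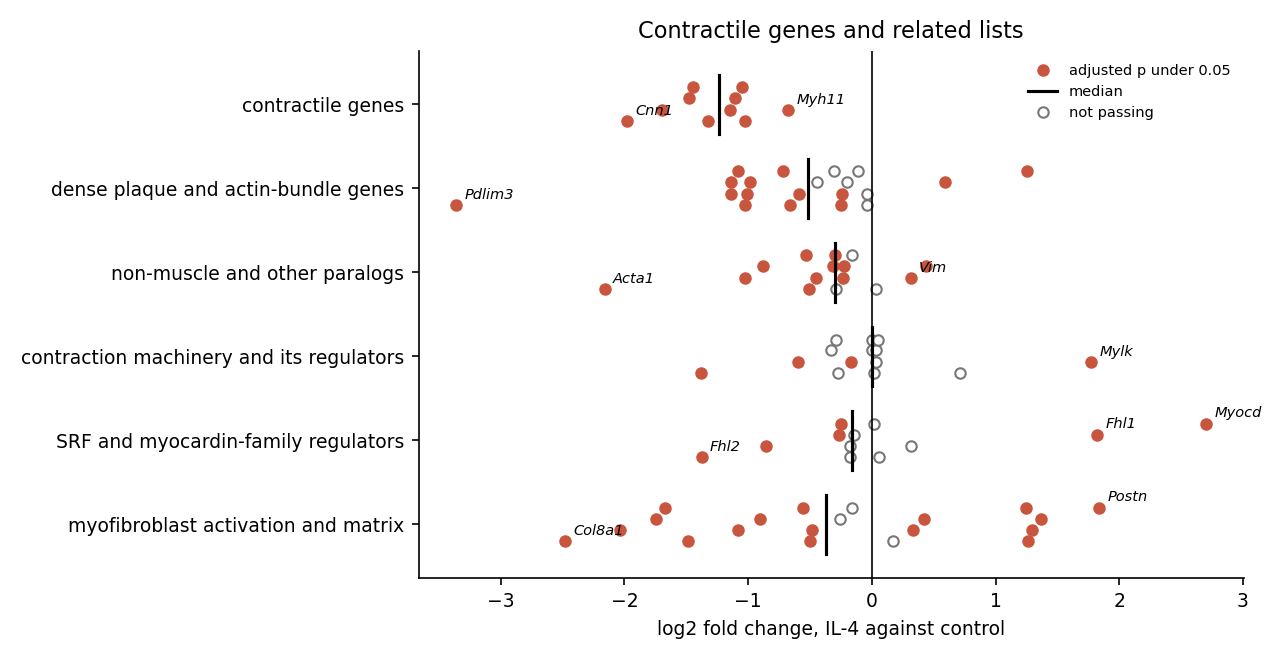
Log2 fold change, IL-4 against control, of the contractile genes and of the tested genes of 5 related lists. Filled points passed an adjusted p of 0.05, open points did not, and black lines mark medians, which run from -1.24 for the contractile genes to 0.00057 for the contraction machinery.

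Genes with a pattern like that of Acta2 were ranked by the root mean square difference of their centred log2 CPM over the 6 libraries, among 11410 genes with a mean of at least 100 normalized counts. Nearest were Spry1 (an inhibitor of receptor tyrosine kinase signaling; 0.044), Ctgf (a matricellular protein; 0.068), Fhl2 (0.072), Mbp (0.082) and Plcg2 (a phospholipase; 0.083). Among the contractile genes, Actg2 (0.059) and Tagln (0.077) lay in the same range, with 1 and 3 of these genes closer to Acta2. The other contractile genes lay further from Acta2. The number of ranked genes closer to it was 55 for Myl9, 115 for Lmod1, 129 for Des and 137 for Tpm2. It was 152 for Tpm1, 287 for Cnn1 and 709 for Myh11. Nearest to Cnn1 were Anxa8 (0.067), Bhlhe41 (0.074), Nr4a1 (0.078), Fyb (0.088) and Cacna1d (0.102). Acta2 lay at 0.286 from Cnn1, with 104 of the ranked genes closer.

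Markers of other cell types moved with the treatment as well. The AP list was present in every library, with all 12 genes tested, 6 higher and 3 lower, and its summed normalized count was 66829 to 69222 in the controls against 89069 to 93494 with IL-4. The largest rises in it were Pi16 (4.02), Cd34 (3.35) and Cd55 (3.14, adjusted p at most 2.62e-07 for the 3 genes). The largest falls were Dlk1 (-0.67, adjusted p = 0.0492, which reached 0.164 without control replicate 1 and also missed the threshold without any of the other libraries but IL-4 replicate 6), Lum (-0.61, adjusted p = 0.00134) and Icam1 (-0.47, adjusted p = 0.000874). Pericyte and mural cell markers, which mark cells of which only some also express Acta2 and Myh11, were lower for 7 and higher for 3 of 11 tested genes, with sums of 30144 to 34149 in the controls against 22098 to 24907 with IL-4. Most of that sum was Pdgfrb, which fibroblasts also express. Mcam (-1.76, adjusted p = 2.93e-06), Cspg4 (-1.34, adjusted p = 0.00103) and Abcc9 (-0.99, adjusted p = 0.00665) fell, Ndufa4l2 (1.71, adjusted p = 3.40e-05) and Gucy1b3 (0.55, adjusted p = 0.00306) rose, and Higd1b had at most 4.27 normalized counts in any library.

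Macrophage markers were present although CD45-bearing cells had been depleted. Their summed normalized counts were 113922 to 140937 in the controls and 53919.5 to 65111 with IL-4, and none of the 12 was at 0 in the controls. The largest part of these sums was Lyz2, with means of 73406 in the controls and 23481 with IL-4 (-1.64, adjusted p = 5.90e-05). Ptprc, which encodes CD45, had means of 2563 in the controls and 1294 with IL-4 (-0.99, adjusted p = 1.87e-05). Of the 12 genes, 11 were lower, with a median log2 fold change of -1.02. The number lower was 8 without control replicate 3 or without IL-4 replicate 4. One marker passed as higher in each of 5 alternatives, which were DESeq2, no filter, the omission of control replicate 3, of IL-4 replicate 4, and of control replicate 3 with IL-4 replicate 6. The largest falls were Cx3cr1 (-8.65, adjusted p = 6.90e-08), Aif1 (-4.43, adjusted p = 4.65e-05) and Fcgr1 (-2.91, adjusted p = 1.86e-06), whereas Cd68 was at 0.38 (adjusted p = 0.0572). The smallest falls were Adgre1 (-0.24, adjusted p = 0.0275) and Itgam (-0.27, adjusted p = 0.0397). The part of macrophages, pericytes or mural cells in the fall of the contractile genes was not tested.

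Endothelial markers summed to 1450.3 to 1527 in the controls against 1244 to 1449 with IL-4, with 4 of 8 genes lower, the largest fall being Cdh5 (-1.60, adjusted p = 4.16e-05), and 1 higher, Tek (0.81, adjusted p = 0.00151). The number of lower endothelial genes was 2 without control replicate 1, without control replicate 3 or without IL-4 replicate 4, and 6 with library totals. Of 18 striated muscle markers, 6 were tested, 2 were lower and 1 was higher (2 without IL-4 replicate 6), the list summed to no more than 221 normalized counts in any library, and 7 markers, Myod1, Myog and Pax7 among them, had at most 3 reads in every library. Of 8 mature adipocyte markers, 4 were tested, and Plin1, Cidec and Lep had at most 3 reads in every library. Lpl (1.72, adjusted p = 8.06e-07), Plin4 (1.77, adjusted p = 2.34e-05) and Fabp4 (1.10, adjusted p = 0.000302) rose, and Lipe fell by 0.32 on the log2 scale (adjusted p = 0.0432, which reached 0.147 without IL-4 replicate 5 and also missed the threshold without control replicate 1 or 3 or any other IL-4 library).

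**Figure D5:**
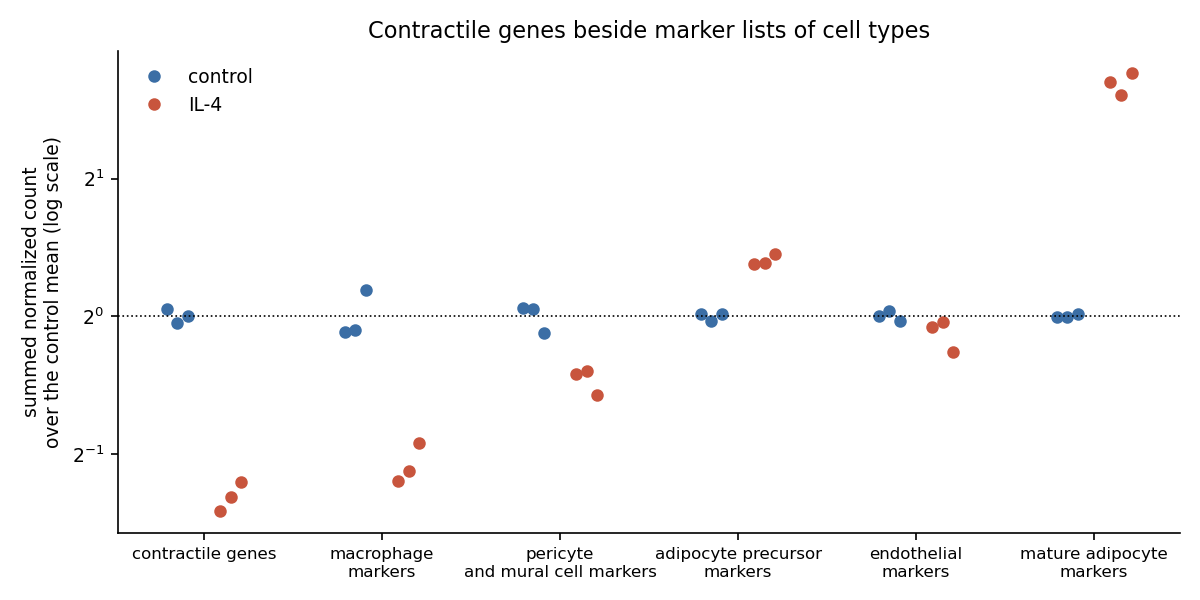
Summed normalized counts of the contractile genes and of 5 marker lists in each library, divided by the mean of the 3 control libraries (log scale, dotted line at 1). The contractile and macrophage lists lie lowest in the IL-4 libraries, with ratios of the IL-4 to the control mean of 0.404 and 0.474, and the mature adipocyte list, most of it Lpl, lies highest at 3.23. Lyz2 is the largest part of the macrophage list.

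Control replicate 3 and IL-4 replicate 6 differed from the other libraries of their groups by transcript length. The median deviation from the group mean of long genes (at least 4289 bases), minus that of short genes (at most 1832 bases), was -0.171 in control replicate 3 and -0.366 in IL-4 replicate 6 on the log2 scale, and 0.040 to 0.210 in the other libraries. The fold change with IL-4 also went with length, with a median log2 value of 0.099 in the short genes and -0.085 in the long ones, and the part of length in the fall of Myh11 and Lmod1 was not tested. IL-4 replicate 6 was the highest IL-4 library for 8 contractile genes and the lowest for the other two, Myh11 and Lmod1, which have the longest transcripts. Without both libraries, all 10 genes were still lower, 9 of them beyond 2-fold, with Acta2 at -1.497 and Myh11 at -0.60 (adjusted p = 0.00125).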

How the data were processed

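RNA of 6 AP cultures was sequenced after poly-A selection on BGISEQ-500. The authors filtered reads with SOAPnuke, mapped them to mm10 with HISAT and used Bowtie2 and RSEM to quantify genes, and the submitters' processing notes also name StringTie (versions not given in the sources used here). The deposited values used are RSEM's expected counts, not normalized, and FPKM, scaled by the authors for transcript length and library size. Of expected counts above 0, 87.0 to 87.2% were whole numbers, including those of all 10 contractile genes in all libraries. A gene missing from a library was taken as 0. The average transcript length of each gene in each library was also read from the deposited tables. One row without a gene symbol, under 0.0003% of counts, was left out.

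After rounding of the expected counts, low genes were removed by filterByExpr (counts of at least 10, total of at least 15), and the rest were scaled by TMM and tested with the quasi-likelihood test of edgeR 4.0.16 (R 4.3.3), IL-4 against control, over 14009 genes. The biological coefficient of variation was 0.094. P-values were adjusted by Benjamini-Hochberg over all genes tested. Intervals are for the difference between the groups, with a standard error that rests on the spread between libraries. FPKM were used for levels between genes and for shares of families. Ratios and shares were compared by exact two-sided permutation tests over libraries. The script was tested on simulated counts. Gene positions and promoters come from RefSeq, GRCm38.p6, the assembly of mm10. Alternatives were DESeq2 1.42.0, upper-quartile scaling, library totals, testing without a filter, log2(FPKM + 1) or log2(FPKM + 0.1) in limma 3.58.1, and each library left out in turn. The omission of both length-biased libraries was added after seeing the data.

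The contractile genes and lists were chosen with earlier results of these data known. Named besides the 10 genes are, per list, the passing genes with the 3 largest rises and falls among those with a mean of at least 100 normalized counts, Srf and the myocardin-family cofactors, all paralogs, and the 5 genes most like Acta2 and Cnn1. Cd68, Lyz2, Ptprc, Adgre1, Itgam, Pdgfrb, Myl6, Higd1b and the genes named as too low to test were added after their values were seen. One gene that this rule names is not reported here. The 4 small RNA libraries were not used here.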

Additional observations from a re-analysis of the deposited data

How the results depend on the processing

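All 10 contractile genes were lower at an adjusted p under 0.05 in the main test and in each of the 13 alternatives, with log2 fold changes of -1.62 to -1.39 for Acta2, -2.15 to -1.90 for Cnn1, -0.85 to -0.45 for Myh11 (adjusted p up to 0.0404, without control replicate 1) and -1.28 to -0.64 for Des. The value nearest 0 for Myh11 and Des came with log2(FPKM + 1), where the pseudocount weighs on genes this low. The number lower beyond 2-fold was 8 with log2(FPKM + 1) and 7 to 9 without single libraries, the 7 without IL-4 replicate 4. Over all genes, 2582 were lower and 2663 higher. Library totals gave 4963 and 1704, log2(FPKM + 1) 4916 and 1697, and log2(FPKM + 0.1) 4904 and 1694, so that the share of lower calls went from 49.2% to 74.4%, 74.3% and 74.3%. The median log2 fold change of all genes was -0.17, -0.13 and -0.17 in these settings. Leaving out single libraries gave 1911 to 3014 lower and 2017 to 3199 higher genes. Of 1432 values recomputed, 1337 were classed as the same, 42 moved, 12 newly passed, 41 no longer passed and none reversed direction. For counts, the class of the same allows some change, such as the 9 genes beyond 2-fold that became 7 without IL-4 replicate 4. The number of contractile genes with a lower family share stayed 9 with expected counts in place of FPKM. The size of the change moved for Acta2, Actg2, Tpm1, Tpm2, Myl9 and Des. The share of Acta2 changed by -8.80 percentage points with FPKM and -10.8 with expected counts, and that of Myl9 by -13.6 and -10.1. No paired analysis was possible because the control libraries are numbered 1 to 3 and the IL-4 libraries 4 to 6, so the groups share no replicate number. Normalized counts were lowest for Des (54.6 to 137) and Myh11 (141 to 319), and the standard errors of these genes, 0.130 and 0.154, were the largest of the 10.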
